A study of Homo sapiens with 18 samples.

Results

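The comparison described here set SJSA-1 cells that had received Nutlin and PD0332991 together (N+PD30) against cells given the solvent DMSO. Its members were the 3 N+PD30 libraries and the 3 DMSO libraries, 6 of the 18 samples of the series, chosen by their sample titles. SJSA-1 is an established human osteosarcoma line that carries extra copies of MDM2 and CDK4. N+PD30 cells were exposed to 10 µM PD0332991 for 30 h and to 20 µM Nutlin for 6 h, as the labels give these doses. The scheme in the study writes the Nutlin dose differently, and which dose was used for these libraries could not be settled. DMSO cells received neither drug. Libraries with Nutlin alone for 6 h (Nutlin) and with PD0332991 alone for 30 h (PD30), 3 of each, are used below as points of reference. All groups came from the same line, so the results describe 1 cell line. The replicates are described by the study as biological, without further detail on the cultures, and the p-values measure the spread between them.

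Nutlin blocks the pocket of MDM2 that holds p53. MDM2 is the ubiquitin ligase that marks p53 for degradation, and it is itself transcribed from a p53-responsive gene, so p53 and MDM2 form a feedback loop. PD0332991, also called Palbociclib, inhibits the cyclin D-dependent kinases CDK4 and CDK6, which phosphorylate the retinoblastoma protein. Hypophosphorylated retinoblastoma proteins hold E2F transcription factors in check, and the DREAM complex, made of RBL1 or RBL2, E2F4 or E2F5 and the MuvB core, represses G2/M genes through promoter elements called CHR. The p53 target CDKN1A encodes p21, which inhibits cyclin-dependent kinases as well. In the amplicon-bearing line studied here, both drug targets are themselves amplified genes.

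Gene counts summed to between 28836321 and 33004047 per DMSO library. The N+PD30 libraries held 12704845 (replicate 1), 29762195 (replicate 2) and 20652310 (replicate 3) counts. All levels below are CPM (counts scaled to the library total, with TMM scaling), which can be compared between groups for 1 gene but not between genes of different length. A gene was called when edgeR's quasi-likelihood test gave a Benjamini-Hochberg adjusted p under 0.05 and the change exceeded 2-fold, that is 1 on the log2 scale. Of the osteoblast lineage markers, 10 of 13 reached 1 CPM in both groups. SP7, BGLAP and IBSP did not, with means of at most 0.039 CPM in either group. The summed level of all 13 ranged from 5460 to 7530 CPM in DMSO and from 6440 to 8530 CPM in N+PD30. Most of it came from VIM, COL1A1 and SPARC, with means of 2750, 1710 and 1410 CPM in DMSO. Of 13 epithelial markers, the defining genes EPCAM, CDH1, KRT5, KRT14 and GRHL2 summed to at most 1.82 CPM in any of the 6 libraries. The whole list summed to between 238 and 305 CPM in DMSO and between 185 and 238 CPM in N+PD30, most of it from KRT18 (248, 202 and 175 CPM against 149, 102 and 79.3 CPM) and OCLN. KRT8 and CLDN4 were called higher, KRT8 at 12.2, 11.1 and 9.19 CPM against 38.8, 29.8 and 26.9 CPM. The 10 endothelial markers summed to between 15.7 and 20.9 CPM in DMSO and between 13.1 and 17.7 CPM in N+PD30, with VWF and ESAM called higher and 1 gene lower. Among these, PECAM1, CDH5 and VWF together went from between 1.83 and 2.95 CPM to between 6.37 and 8.75 CPM. The 14 leukocyte markers summed to between 24.6 and 33.9 CPM and between 36.3 and 52.6 CPM, with CSF1R called higher, while CD3E was at 0 in all 6 libraries and PTPRC at or near 0. The part of such markers in the other results was not tested. N+PD30 replicate 1, the shallowest library, stood apart from replicates 2 and 3 in several gene groups, whose counts are given with and without it.

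Of 15134 tested genes, 3620 were called in N+PD30 against DMSO, which is 23.9% of them. Among these, 1698 genes were higher (11.2%) and 1922 were lower (12.7%). In 3572 of the 3620 called genes the 3 N+PD30 libraries lay wholly above or below the 3 DMSO libraries. The call itself selects for such separation, so this count adds no support to the calls. The share over all tested genes is not reported here. Falls reached further than rises, since 350 genes were lower by more than 3 on the log2 scale and 94 were higher by more than 3. The median log2 fold change over all tested genes was 0.0045. Over the 12 libraries, the first principal component (48.9% of the variance) placed N+PD30 beside PD30, between 58.5 and 62.8 against 50.9 and 56.9, with DMSO between -52.8 and -47.6. On the second component (32.6%) N+PD30 lay between -35.4 and -20.8, PD30 between 17.8 and 21.5 and Nutlin between -63.8 and -50.9.

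Genes of cell division fell as a group. All 73 tested G2/M genes fell, with a median log2 fold change of -5.78, and all 59 tested S phase genes fell, with a median of -4.10. Among all tested genes 12.7% were called lower. Their summed levels went from between 12750 and 13670 CPM in DMSO to between 434 and 497 CPM in N+PD30 for G2/M, and from between 6304 and 6693 to between 557 and 635 CPM for S phase. These counts were the same when any 1 of the 6 libraries was left out, including N+PD30 replicate 1. In such bulk libraries, fewer cells in division and less RNA per cell cannot be told apart.

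The promoters of G2/M and S phase genes are shown first because they hold the elements through which DREAM and E2F factors are known to act. RefSeq windows (GRCh38.p14, from 250 bases before to 50 bases after the annotated start, first listed start per gene) were matched for 62 of the 73 G2/M genes and 49 of the 59 S phase genes. The CHR core TTTGAA, on either strand, was in 41 of the 62 G2/M windows (66.1%) and in 15.4% of all 27305 windows. An E2F sequence, TTTCCCGC or TTCCCGCC on either strand, was in 19 of the 49 S phase windows (38.8%) and in 3.99% of all windows. Windows were matched for 11479 of the 15134 tested genes, and of these 10.1% held the CHR core and 6.09% an E2F sequence. Both E2F strings overlap in a run with an added T, so a window with both counts once. A match is a description of the letters, not of binding. The stretches below are examples from G2/M and S phase genes that fell and held a match. They are written 5′ to 3′ along the gene, with every match in the stretch in capitals. On the opposite strand the CHR core reads TTCAAA and the E2F strings read GCGGGAAA and GGCGGGAA. MKI67 held the CHR core at 2 positions, and in CLSPN and GINS2 both E2F strings overlapped.
KIF18B CHR (chr17:44947741-44947796, minus strand): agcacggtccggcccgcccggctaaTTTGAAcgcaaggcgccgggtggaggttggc
ASPM CHR (chr1:197146752-197146807, minus strand): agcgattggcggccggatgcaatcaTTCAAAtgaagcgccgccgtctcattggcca
ESPL1 CHR (chr12:53268243-53268298, plus strand): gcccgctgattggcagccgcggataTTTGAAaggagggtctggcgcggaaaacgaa
MKI67 CHR (chr10:128126440-128126495, minus strand): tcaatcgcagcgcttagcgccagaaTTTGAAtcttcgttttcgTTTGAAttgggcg
CLSPN E2F (chr1:35769952-35770009, minus strand): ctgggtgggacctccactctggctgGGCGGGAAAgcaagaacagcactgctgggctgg
GINS2 E2F (chr16:85688954-85689011, minus strand): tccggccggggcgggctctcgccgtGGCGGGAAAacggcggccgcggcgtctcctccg
RFC3 E2F (chr13:33818069-33818126, plus strand): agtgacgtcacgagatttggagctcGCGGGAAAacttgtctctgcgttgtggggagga

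MKI67, the gene of the proliferation marker Ki-67, was at 636, 654 and 733 CPM in DMSO and at 2.81, 3.43 and 3.08 CPM in N+PD30, which is a change of -7.74 ± 0.14 (SE) on the log2 scale, with an adjusted p of 1.65e-08. ASPM, a spindle pole protein, went from 218, 220 and 256 CPM to 0.745, 0.823 and 0.625 CPM, with a log2 fold change of -8.29 ± 0.17 (adjusted p = 1.65e-08). No library of either group came near the other in these genes. KIF18B, a kinesin that depolymerises microtubule ends, had 2503, 1953 and 2331 counts in DMSO and 1, 7 and 6 counts in N+PD30. ESPL1, the protease separase that opens cohesin rings at anaphase, had 3233, 2828 and 3323 counts in DMSO and 3, 17 and 8 counts in N+PD30. At such counts the size of a fold depends on a few reads: the ratio of pooled counts per total was 330 for KIF18B (95% exact counting interval 196 to 604) and 228 for ESPL1 (158 to 343). These intervals cover counting error only.

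S phase genes behaved likewise. RRM2, the inducible subunit of ribonucleotide reductase, was at 567, 507 and 560 CPM in DMSO and at 3.72, 4.97 and 2.79 CPM in N+PD30 (log2 fold change -7.13 ± 0.21, adjusted p = 3.65e-08). DTL, a substrate receptor of the CUL4 ubiquitin ligase that degrades the licensing factor CDT1, fell by 7.36 on the log2 scale (SE 0.26). The origin-firing factors MCM10 and CDC45 fell by 7.09 and 6.26. Beside these list members, FAM111B (3308, 2874 and 3566 counts in DMSO against 3, 1 and 5), the cohesin acetyltransferase ESCO2 (1752, 1574 and 2054 against 2, 3 and 4) and the DNA glycosylase NEIL3 (980, 850 and 1036 against 3, 4 and 1) were among the 8 genes of largest fall. NEIL3 lost 7.83 on the log2 scale.

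Genes that control the G1/S transition were lower in part. Of 32 tested, 15 fell (46.9%, beside 12.7% of all genes) and 2 rose (6.25%, beside 11.2%), with a median of -0.96. E2F8, an atypical E2F that represses transcription, had 929, 818 and 1113 counts in DMSO and 1 count in each N+PD30 library, a pooled ratio of 649 with a counting interval from 222 to 3150. CCNE2, which encodes cyclin E2, was at 70.3, 67.0 and 93.8 CPM in DMSO and at 0.414, 0.274 and 0.433 CPM in N+PD30 (log2 fold change -7.74 ± 0.24, adjusted p = 4.88e-08). The phosphatase gene CDC25A fell by 5.91 and the activator E2F2 by 5.11. In the opposite direction, the cyclin D2 gene CCND2 was at 29.4, 26.2 and 24.1 CPM in DMSO and at 126, 128 and 161 CPM in N+PD30, a rise of 2.38 ± 0.13 on the log2 scale (adjusted p = 1.52e-06). CDKN1A was the other G1 control gene that rose. Of the 14 tested genes of the DREAM and MuvB complexes, 6 fell (42.9%, beside 12.7% of all genes) and 1 rose (7.14%, beside 11.2%). LIN9 (-5.78), MYBL2 (-5.15), RBL1 (-3.64) and LIN54 (-2.21) were the largest falls. DYRK1B, whose relative DYRK1A phosphorylates LIN52 in DREAM assembly, rose by 1.26.

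The targets of PD0332991 and the protein they act on were as follows. CDK4 (chromosome 12, positions 58141510 to 58149796, minus strand, GRCh37) was at 2518, 3048 and 3065 CPM in DMSO and at 2229, 2368 and 2344 CPM in N+PD30, with a log2 difference of -0.32 ± 0.11 (adjusted p = 0.031) that stayed under the fold threshold. Its adjusted p was 0.113 without DMSO replicate 2, 0.11 without DMSO replicate 3 and 0.076 without N+PD30 replicate 2. CDK6 was at 239, 244 and 236 CPM in DMSO against 163, 213 and 229 CPM (-0.25 ± 0.13, adjusted p = 0.128; 0.0453 with the replicate number as a block and 0.044 without N+PD30 replicate 3). CCND1, which encodes cyclin D1, was at 1066, 1011 and 975 CPM against 1476, 1209 and 1230 CPM (0.36 ± 0.11, adjusted p = 0.0195), and was not called. The quantile scaling gave 0.07 for CCND1 (adjusted p = 0.509), and the adjusted p was 0.0793 and 0.0748 without DMSO replicates 2 and 3. RB1, which encodes the retinoblastoma protein, was at 127, 143 and 141 CPM in DMSO and at 47.4, 67.9 and 67.9 CPM in N+PD30, a called fall of 1.16 ± 0.15 on the log2 scale (adjusted p = 0.000196). RB1 did not overlap between the groups, and in the libraries with a single drug its mean was 59.1 CPM in PD30 and 148 CPM in Nutlin.

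**Figure D1:**
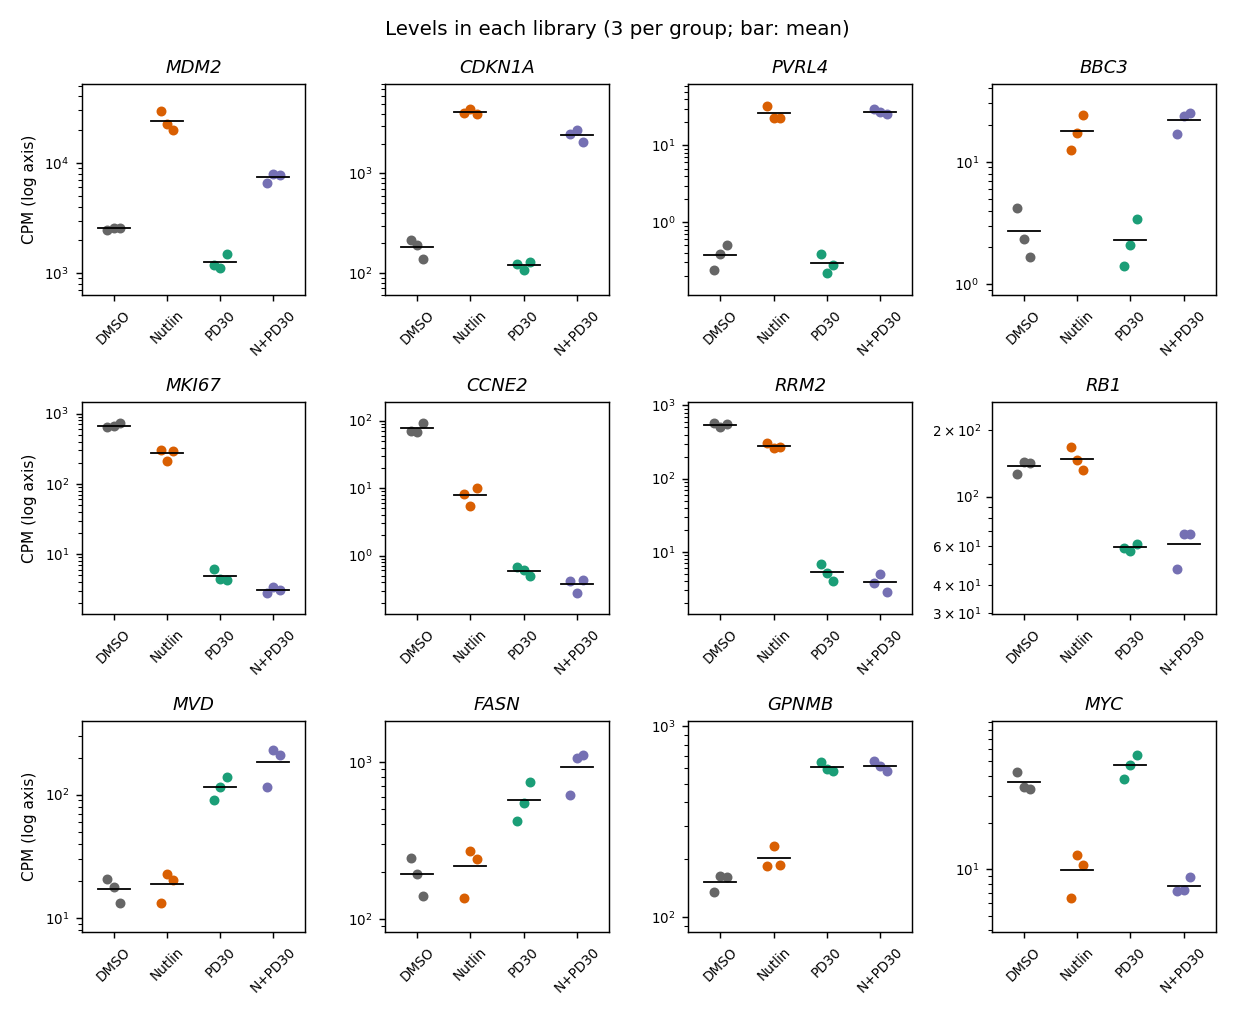
Levels of 12 genes in CPM (log axis) in each of the 3 libraries of the 4 groups, with the group mean as a bar. MKI67, CCNE2 and RRM2 in N+PD30 lie near PD30, PVRL4 lies level with Nutlin, and MDM2 lies between DMSO and Nutlin.

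Many p53 target genes rose with both drugs, among them regulators of arrest, death and metabolism. Of 111 tested p53 target genes, 55 rose and 8 fell, with a median log2 fold change of 1.06, beside 11.2% and 12.7% called higher and lower among all genes. Without N+PD30 replicate 1, 57 rose and 7 fell. The summed level of these genes was between 7720 and 8144 CPM in DMSO and between 20800 and 22620 CPM in N+PD30.

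The feedback arm held 12 tested genes, of which 5 rose (41.7%, beside 11.2% of all genes) and 1 fell (8.33%, beside 12.7%). MDM2 (chromosome 12, positions 69201957 to 69239324, plus strand, GRCh37), the target of Nutlin, was at 2485, 2586 and 2588 CPM in DMSO and at 6545, 7937 and 7814 CPM in N+PD30, a rise of 1.54 ± 0.11 on the log2 scale with an adjusted p of 5.39e-06. Every N+PD30 library lay above every DMSO library, as the plot of levels in 4 groups shows. TP53INP1, which promotes p53 phosphorylation and autophagy, rose by 2.70 ± 0.26 and reached 91.1, 130 and 205 CPM from 20.2, 22.1 and 23.4 CPM. ZMAT3, an RNA-binding protein, rose by 2.04, and the AKT-restraining PHLDA3 rose by 1.90. TP73, the p53 relative and E2F target, fell instead, from 538, 391 and 375 counts to 2, 2 and 6 counts, a ratio of 88.7 with an interval from 48.1 to 185.

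Of 18 tested p53 genes for growth arrest, 9 rose (50.0%, beside 11.2% of all genes). None of the 18 was called lower by edgeR or DESeq2 (beside 12.7% of all genes), with 3 lower at an unadjusted p under 0.05. CDKN1A was at 217, 190 and 139 CPM in DMSO and at 2486, 2740 and 2065 CPM in N+PD30, a 13.4-fold rise (log2 fold change 3.74 ± 0.19, adjusted p = 7.56e-07). GDF15, a stress-induced cytokine, was at 40.9, 49.8 and 29.4 CPM against 828, 760 and 554 CPM (4.16 ± 0.23, adjusted p = 1.42e-06). BTG2, an antiproliferative co-regulator of mRNA decay, was at 14.98, 16.4 and 13.4 CPM against 145, 177 and 208 CPM (3.56 ± 0.16, adjusted p = 3.11e-07). Groups did not overlap in any of these genes. SESN1, a sestrin that restrains mTORC1, rose by 2.73.

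Of 26 tested p53 genes for cell death, 13 rose (50.0%, beside 11.2% of all genes) and 2 fell (7.69%, beside 12.7%). BBC3, which encodes the BH3-only protein PUMA, was at 4.17, 2.35 and 1.66 CPM in DMSO and at 16.9, 23.5 and 25.1 CPM in N+PD30 (log2 fold change 3.0 ± 0.31, adjusted p = 6.36e-05). The death receptor gene FAS rose by 2.37, the decoy receptor gene TNFRSF10D by 2.15 and CYFIP2 by 3.05. Caspase 6 (CASP6) and TNFAIP8 fell by 1.41 and 1.33. Among 19 tested genes of the BCL2 family, 3 rose (15.8%, beside 11.2% of all genes) and 4 fell (21.1%, beside 12.7%). BBC3 and BAX (1.06, and 0.99 without N+PD30 replicate 2) were among those higher. BCL2L11 (-2.44), BMF (-2.27), BCL2L12 (-1.49) and BCL2 (-1.35) were lower. BCL2L11 and BMF encode death-promoting BH3-only proteins, and BCL2 encodes a death-blocking protein of the mitochondrial membrane.

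For DNA repair, 4 of 16 p53 genes rose (PRDM1, RRM2B, XPC and DDB2) and 2 fell, beside 11.2% and 12.7% of all genes. FANCC was among the falls (-1.04), but not with quantile scaling (-0.83) or without N+PD30 replicate 1 (-0.97). Of the 5 p53 lists, that of metabolic and related targets had the largest share called, with 24 of 39 rising, 3 falling and a median of 1.39. SPATA18, a mitophagy factor, rose by 3.44, the adrenodoxin reductase FDXR by 3.37, the ceramidase ACER2 by 3.28 and the calcium channel subunit ORAI3 by 2.94. TP53I3, an oxidoreductase gene, was at 26.4, 27.0 and 20.1 CPM against 156, 148 and 110 CPM (2.49 ± 0.17, adjusted p = 5.39e-06). ORAI3 was at 7.44, 6.78 and 6.02 CPM in DMSO and at 49.2, 54.0 and 51.9 CPM in N+PD30. VCAN, XAF1 and ABCB1 fell. Outside the lists, PVRL4 (NECTIN4, a cell adhesion molecule) had the largest rise among genes past 5 CPM, from 0.240, 0.381 and 0.502 CPM to 29.5, 27.0 and 25.9 CPM (6.18 ± 0.22, adjusted p = 8.83e-08). The riboflavin transporter gene GPR172B (5.42), the dynein intermediate chain gene WDR63 (4.86) and the transcription factor gene SNAI3 (4.70) came next. GPR172B has a close relative in the genome, so its reads may be split between copies.

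A p53 response element of 2 decamers without a spacer, with up to 2 mismatches outside the core letters, was in 3 of 89 matched promoter windows of these 111 genes (3.37%) and in 0.271% of all windows, while most known p53 sites lie outside such short windows. AEN, an exonuclease gene, rose by 1.46 and is shown as an example of such a match, in capitals. Not every member with a match was considered for display, so AEN is not ranked among them by its rise.
AEN p53 element (chr15:88621281-88621350, plus strand, GRCh38.p14): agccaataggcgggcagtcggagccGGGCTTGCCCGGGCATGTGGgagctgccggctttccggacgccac

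Set against Nutlin alone, p53 genes were called in both directions, with the share called lower not above that of all genes. Of 15721 genes, 3510 were called (22.3%; 8.43% higher and 13.9% lower). With both drugs, 17 of 114 tested p53 genes were higher (14.9%) and 14 lower (12.3%), with a median of 0.03. By adjusted p alone, 38 were higher and 33 lower. MDM2 was 1.70 lower on the log2 scale than in Nutlin, DDB2 1.08 lower and PIDD 1.07 lower, all called. BTG2 (1.09), PHLDA3 (1.12) and ORAI3 (2.35) were higher than in Nutlin. CDKN1A was at 4044, 4430 and 3993 CPM in Nutlin, above every N+PD30 library, and its difference of -0.78 ± 0.14 had an adjusted p of 0.000998 but stayed under the fold threshold. The growth arrest genes summed to between 3916 and 4685 CPM in N+PD30 and between 5540 and 6376 CPM in Nutlin. CDKN1A held much of both sums, with a mean of 4156 of 5903 CPM in Nutlin and 2430 of 4359 CPM in N+PD30. Of 19 tested growth arrest genes, 5 were higher with both drugs (26.3%) and 1 was lower (5.26%), with a median of 0.12. PVRL4 differed by 0.06 and was not called. Against PD30 alone, 555 of 15077 genes were called (3.68%; 3.18% higher and 0.497% lower), and this count was 318 without PD30 replicate 1 and 356 without N+PD30 replicate 2. Within it, 59 of 109 tested p53 genes were higher, with a median of 1.10, and none was called lower by edgeR or DESeq2, with 5 lower at an unadjusted p under 0.05. The same lists in the single-drug groups are given side by side, since they share the DMSO libraries: with Nutlin, 51 of 113 p53 genes rose and 4 fell against DMSO (20.8% of all genes called, 12.4% higher and 8.42% lower), and with PD30, 7 of 108 rose and 18 fell (15.2% called, 5.76% higher and 9.48% lower).

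Against PD30 alone, 5 of 73 G2/M genes were called lower (6.85%, beside 0.497% of all genes). Of the 73, 64 had a value below 0, and the median was -0.63. None was called higher by edgeR or DESeq2, with 1 higher at an unadjusted p under 0.05. The number lower was 1 without PD30 replicate 1, 3 without PD30 replicate 2, 2 without N+PD30 replicate 1 and 0 without N+PD30 replicate 2. Of 58 S phase genes, 3 were higher (5.17%, beside 3.18%) and 2 lower (3.45%, beside 0.497%), and the median was -0.26. The 2 S phase falls became 1 without PD30 replicate 1, PD30 replicate 2 or N+PD30 replicate 2, 0 without PD30 replicate 3 or N+PD30 replicate 1, and 3 without N+PD30 replicate 3. Against Nutlin, 72 of 73 G2/M genes and 55 of 59 S phase genes were lower (98.6% and 93.2%, beside 13.9% of all genes). ASPM was called lower than in PD30 (-1.58), while MKI67 (-0.67) and RRM2 (-0.48) were not.

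**Figure D2:**
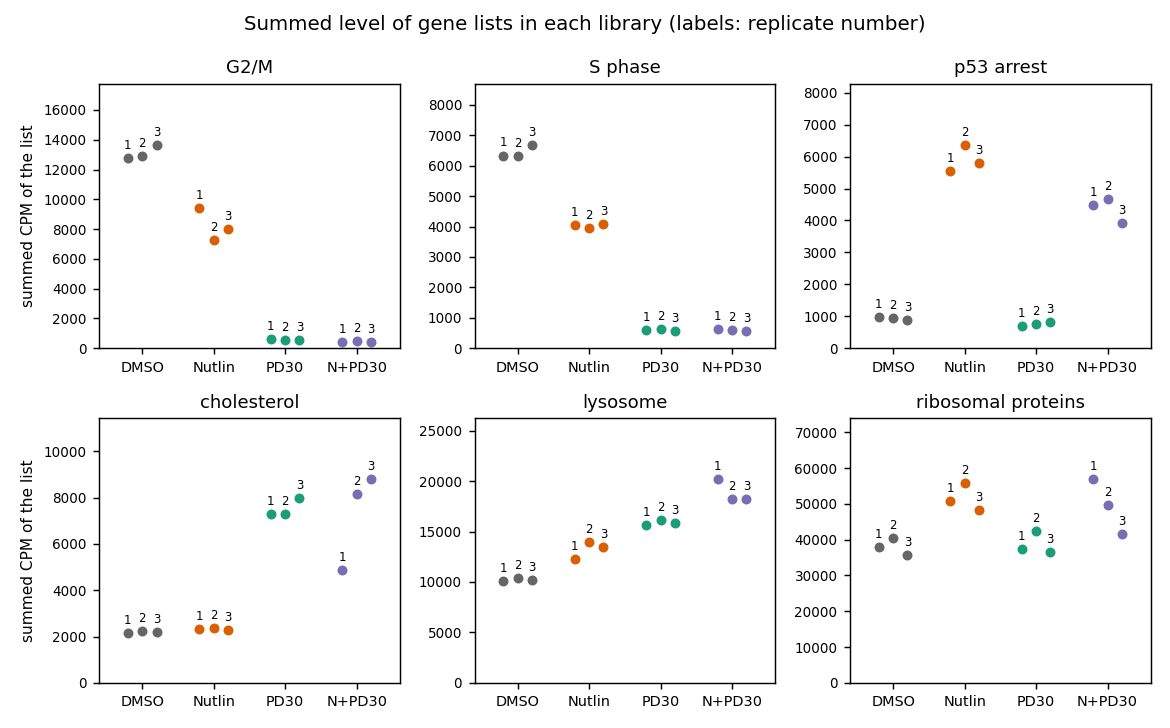
Summed CPM of 6 gene lists in each library (points, labelled with the replicate number) of the 4 groups, on linear axes from 0. G2/M and S phase sums in N+PD30 are close to PD30, the p53 arrest sum lies between 3916 and 4685 CPM, and N+PD30 replicate 1 has the lowest cholesterol sum and the highest ribosomal protein sum of its group.

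Most genes of cholesterol synthesis rose. The sterol pathway converts acetyl-CoA to cholesterol through the mevalonate route, and SREBP2 is its known transcription factor. Of 30 tested cholesterol genes, 25 rose (83.3%, beside 11.2% of all genes) and 2 fell (6.67%, beside 12.7%), with a median of 1.68. The sum over the list was 2170, 2240 and 2213 CPM in DMSO and 4869, 8166 and 8784 CPM in N+PD30, so replicate 1 lay well below the other N+PD30 libraries but above DMSO. Without replicate 1, 24 rose and 2 fell, and the part of that library in the values was not tested further. MVD, mevalonate diphosphate decarboxylase, was at 20.9, 17.8 and 13.3 CPM against 116, 230 and 209 CPM (log2 fold change 3.42 ± 0.27, adjusted p = 1.31e-05). DHCR7, the last reductase of the route, was at 38.7, 37.6 and 33.2 CPM against 164, 328 and 326 CPM (2.90 ± 0.25, adjusted p = 2.14e-05). MSMO1 rose by 2.87 and LSS by 2.59. MYLIP, which degrades the LDL receptor, and the sterol exporter ABCG1 fell by 1.84 and 1.55. ABCG1 was at 8.19 CPM in replicate 1 and at 2.19 and 2.12 CPM in replicates 2 and 3, and its call was lost with DESeq2 (adjusted p = 0.0578) and when DMSO replicate 1, DMSO replicate 2 or N+PD30 replicate 2 was left out (adjusted p = 0.0521, 0.0527 and 0.0867).

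In fatty acid metabolism, 7 of 23 tested genes rose (30.4%, beside 11.2% of all genes) and 2 fell (8.7%, beside 12.7%). The median was 0.60, and without N+PD30 replicate 1 the counts were 8 and 2 of 24. FASN, fatty acid synthase, was at 246, 194 and 140 CPM in DMSO and at 617, 1051 and 1099 CPM in N+PD30 (2.25 ± 0.26, adjusted p = 0.000117). SCD, the desaturase that makes oleate, was at 285, 327 and 324 CPM against 808, 1449 and 1648 CPM (2.06 ± 0.23, adjusted p = 0.000111). Replicate 1 was again the lowest of the N+PD30 libraries, also in the sum over the list (4142, 6460 and 6801 CPM, and between 2465 and 2544 CPM in DMSO). The acetyl-CoA synthetase ACSS2 and the desaturase FADS2 rose by 2.75 and 2.62. Exons of FADS2 overlap FEN1 on the same strand and FADS1 on the other. ELOVL2 and ACACB fell. Against Nutlin, 24 of 31 cholesterol genes were higher (77.4%, beside 8.43% of all genes) and 4 lower (12.9%, beside 13.9%). Against PD30, 1 of 30 was higher (3.33%, beside 3.18%). The matched promoter share was under 80% for the cholesterol genes and for the called genes as a whole, so no motif share is given for them.

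Of 57 tested lysosomal genes, 22 rose (38.6%, beside 11.2% of all genes), with a median of 0.86, and 20 rose without N+PD30 replicate 1. None was called lower by edgeR or DESeq2, and 1 was lower at an unadjusted p under 0.05. The summed level was between 10140 and 10440 CPM in DMSO and between 18220 and 20170 CPM in N+PD30. GPNMB, a lysosomal and melanosomal glycoprotein, was at 135, 164 and 161 CPM against 658, 614 and 584 CPM (2.01 ± 0.11, adjusted p = 1.53e-06). The sialidase gene NEU1 was at 57.1, 66.8 and 63.5 CPM against 233, 255 and 261 CPM (2.0 ± 0.10, adjusted p = 9e-07). CTSD, the protease cathepsin D, rose by 1.73 and was among the 5 called rises of highest mean CPM, with MDM2, FTH1, ITGA3 and CDKN1A. The glycosidases IDUA and GAA rose by 2.26 and 1.79. Against Nutlin 12 of 57 were higher (21.1%, beside 8.43% of all genes), and against PD30 1 of 57 (1.75%, beside 3.18%).

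**Figure D3:**
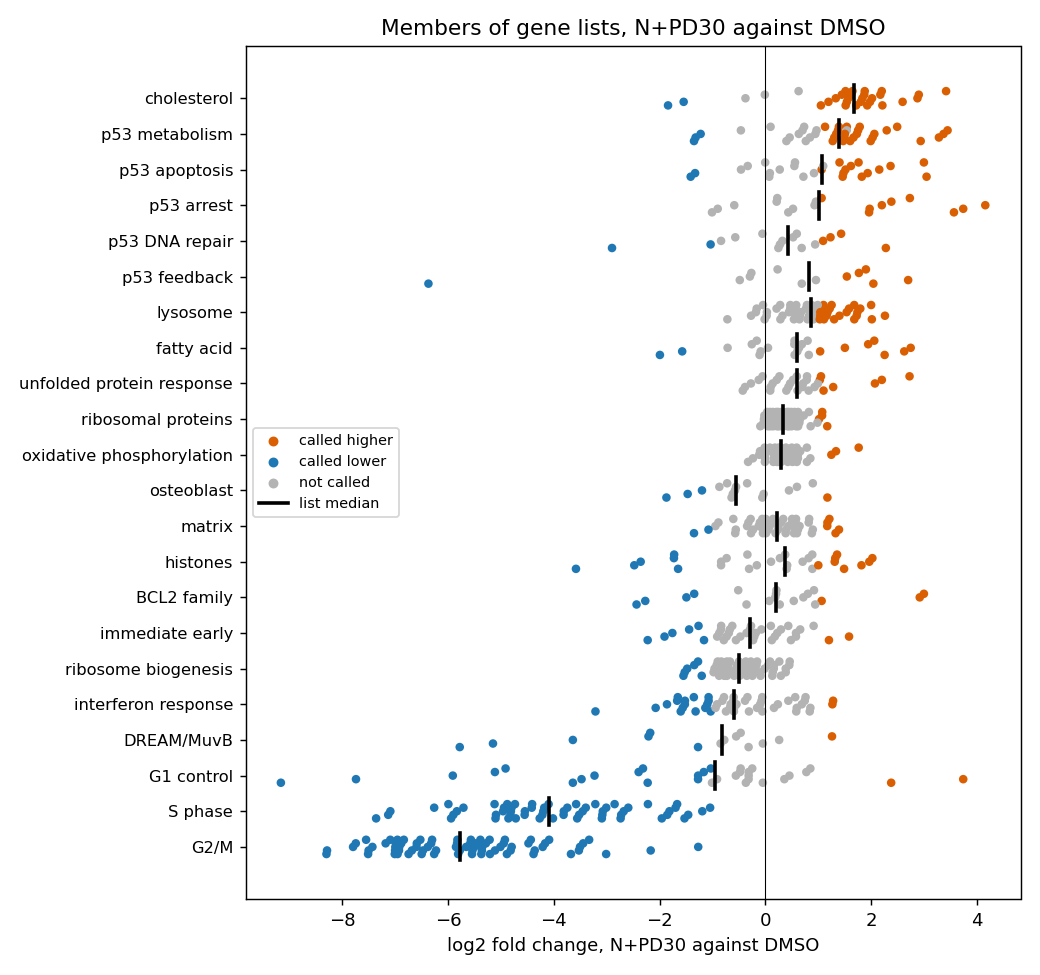
Each point is a tested member of a gene list with its log2 fold change in N+PD30 against DMSO (x axis); orange and blue points were called higher and lower, and the black bar is the list's median. The G2/M and S phase lists lie wholly to the left of 0, and the cholesterol and p53 metabolism lists have the highest medians, 1.68 and 1.39.

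The unfolded protein response and amino acid stress genes held 7 rises among 30 tested (23.3%, beside 11.2% of all genes). The median was 0.60, and without N+PD30 replicate 1 there were 9 rises. None was called lower by edgeR or DESeq2, and 1 was lower at an unadjusted p under 0.05. CHAC1, an enzyme that breaks down glutathione, was at 2.25, 2.94 and 1.35 CPM against 6.87, 15.1 and 20.7 CPM (2.72 ± 0.40, adjusted p = 0.000512). TRIB3, a pseudokinase induced by ATF4, was at 38.6, 63.1 and 35.1 CPM against 89.1, 200 and 285 CPM (2.07 ± 0.39, adjusted p = 0.00184). The lowest N+PD30 value of both genes was again in replicate 1. SESN2 rose by 2.20 and CEBPB by 1.28.

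Among immediate early genes, 6 of 37 fell (16.2%, beside 12.7% of all genes) and 2 rose (5.41%, beside 11.2%). MYC was at 42.4, 34.1 and 32.95 CPM in DMSO and at 7.20, 7.34 and 8.84 CPM in N+PD30, a fall of 2.23 ± 0.15 (adjusted p = 4.79e-06). Its mean was 9.83 CPM in Nutlin and 47.0 CPM in PD30, and it was called lower against PD30 (-2.59) but not against Nutlin (-0.34). KLF2 and KLF10 fell by 1.91 and 1.16, and JUND and ATF3 rose by 1.58 and 1.20. Without N+PD30 replicate 2 KLF10 was at -0.95, and without N+PD30 replicate 3 ATF3 was at 0.95, both then under the fold threshold. Ribosome biogenesis genes, many of them known MYC targets, held 6 falls among 60, with a median of -0.49, and this share of 10.0% lay below the 12.7% of all genes called lower. None was called higher by edgeR or DESeq2, and 3 were higher at an unadjusted p under 0.05. By adjusted p alone, without the fold threshold, 36 of the 60 were lower and 3 higher. Over all 15134 tested genes, 4469 were lower and 4095 higher by that measure. The RNA polymerase I factors POLR1E (-1.55) and UBTF (-1.48) and the snoRNP proteins NOP56 (-1.53) and NOP58 (-1.34) fell the most. In the annotation, NOP56 and NOP58 share exon positions with snoRNA genes.

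Of 49 tested interferon response genes, 16 fell (32.7%, beside 12.7% of all genes) and 2 rose (4.08%, beside 11.2%), with a median of -0.60. IFI44 (-2.07), HERC5 (-1.67), DDX60 (-1.66) and OAS3 (-1.60) were lower, and STAT2 (1.28) and ISG15 (1.27) were higher. ISG15 was at 21.9, 19.1 and 11.4 CPM in DMSO and at 55.0, 41.3 and 30.3 CPM in N+PD30. None of 22 MHC class I genes was called by edgeR or DESeq2, with 10 higher and 2 lower at an unadjusted p under 0.05. B2M differed by 0.04 ± 0.10 (adjusted p = 0.734). A list of 37 tested genes linked to senescence held mostly secreted factors but also the membrane protein gene ICAM1 and the nuclear lamina gene LMNB1. In it 3 genes rose (GDF15, ICAM1, LIF; 8.11%) and 2 fell (IL8 and LMNB1; 5.41%), both shares below those of all genes. LMNB1, which encodes lamin B1, was at 257, 258 and 280 CPM in DMSO and at 3.31, 4.25 and 2.31 CPM in N+PD30, a fall of 6.31 on the log2 scale.

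Of 52 matrix genes, 5 rose (9.62%) and 2 fell (3.85%), below the 11.2% and 12.7% of all genes, and without N+PD30 replicate 1 these counts were 4 and 5. MMP2, LAMB2, COL6A2 and NID2 rose by 1.33, 1.17, 1.17 and 1.21, and VCAN and DCN fell by 1.35 and 1.08. NID2 was at 0.99 and not called without N+PD30 replicate 1. Of 16 osteoblast genes, SPP1 rose by 1.17 (6.25% of the list) and 3 fell (18.8%, beside 12.7% of all genes). Among these falls were the cadherin gene CDH11 (-1.87) and BMP4 (-1.47). The call of SPP1 was lost without N+PD30 replicate 2 or 3 (adjusted p = 0.0559 in both) or without DMSO replicate 1 (0.87), and that of DCN without DMSO replicate 1, N+PD30 replicate 2 or N+PD30 replicate 3 (adjusted p = 0.0768, 0.0868 and 0.052). Among the other lists, 5 of 31 heat shock genes rose (16.1%, beside 11.2% of all genes) and 1 fell (3.23%, beside 12.7%). Of 31 NRF2 target genes, 2 rose (6.45%, beside 11.2%), with FTH1, the ferritin heavy chain, at 1.15. The 12q amplicon held 2 rises (6.25%) and 4 falls (12.5%) among 32 genes, neither share above the 11.2% and 12.7% of all genes. The falls were NUP107 (-2.25), YEATS4 (-1.97), XRCC6BP1 (-1.75) and METTL1 (-1.04, and -0.91 without N+PD30 replicate 3).

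The ribosomal protein sum was highest in N+PD30 replicate 1. These genes summed to 37950, 40530 and 35750 CPM in DMSO and to 56840, 49710 and 41720 CPM in N+PD30, with 4 of 71 called higher (5.63%, beside 11.2% of all genes) and a median of 0.34. No ribosomal protein gene was called by edgeR without N+PD30 replicate 1, or by limma with quantile scaling. RPLP0, often used as a reference gene, was at 1343, 1465 and 1239 CPM in DMSO and at 2115, 1727 and 1370 CPM in N+PD30 (0.36 ± 0.16, adjusted p = 0.0732; 0.0165 with the replicate number as a block and 0.00668 without N+PD30 replicate 3). Of 50 oxidative phosphorylation genes 3 were higher (NDUFS7, ATP5D, NDUFS8), and 2 without replicate 1, where ATP5D was at 0.99. This share of 6.0% lay below the 11.2% of all genes called higher. Among 29 tested histone genes 8 rose (27.6%, beside 11.2% of all genes) and 6 fell (20.7%, beside 12.7%). Without replicate 1 it was 6 and 7. H2AFX (-3.58), H2AFZ (-2.48) and H1F0 (-1.65) were lower, and HIST3H2A (1.82), HIST1H2BD (1.49) and HIST1H2AC (1.35) were higher. Histone and ribosomal protein genes have near-identical copies, so their counts are uncertain.

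Among the abundant genes that fell, those of highest mean CPM were TUBB, HNRNPA2B1, PRKDC, TUBA1B and KPNB1. The tubulin gene TUBB was at 3150, 3367 and 3407 CPM against 1587, 1234 and 1143 CPM, and the nuclear import factor KPNB1 at 989, 1032 and 1036 CPM against 390, 389 and 404 CPM. Both groups were apart in each. TUBA1B belongs to a family of close copies.

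A further set was past all 3 other groups at once, and is given as a description since these values chose it. Above DMSO, Nutlin and PD30 lay 76 genes and below all 3 lay 25. These counts ranged from 31 to 125 and from 6 to 35 when 1 library was left out. The number above all 3 was 39 without N+PD30 replicate 2, 125 without N+PD30 replicate 3, 31 without PD30 replicate 1 and 50 without Nutlin replicate 1. The number below all 3 was 6 without N+PD30 replicate 2, and 9, 16 and 15 without PD30 replicates 1, 2 and 3. SOX4, a developmental transcription factor gene, was at 61.2, 49.2 and 48.9 CPM in DMSO and at 7.03, 7.44 and 6.82 CPM in N+PD30, with means of 23.9 CPM in Nutlin and 21.4 CPM in PD30. TRAF4, a signalling adaptor gene, was at 34.8, 39.4 and 31.6 CPM in DMSO and at 118, 100 and 107 CPM in N+PD30, with means of 40.8 CPM in Nutlin and 24.0 CPM in PD30. ADM2, a peptide hormone gene, was at 2.49, 4.40 and 2.38 CPM against 15.2, 26.3 and 26.5 CPM, with 2.72 CPM in Nutlin and 9.03 CPM in PD30.

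**Figure D4:**
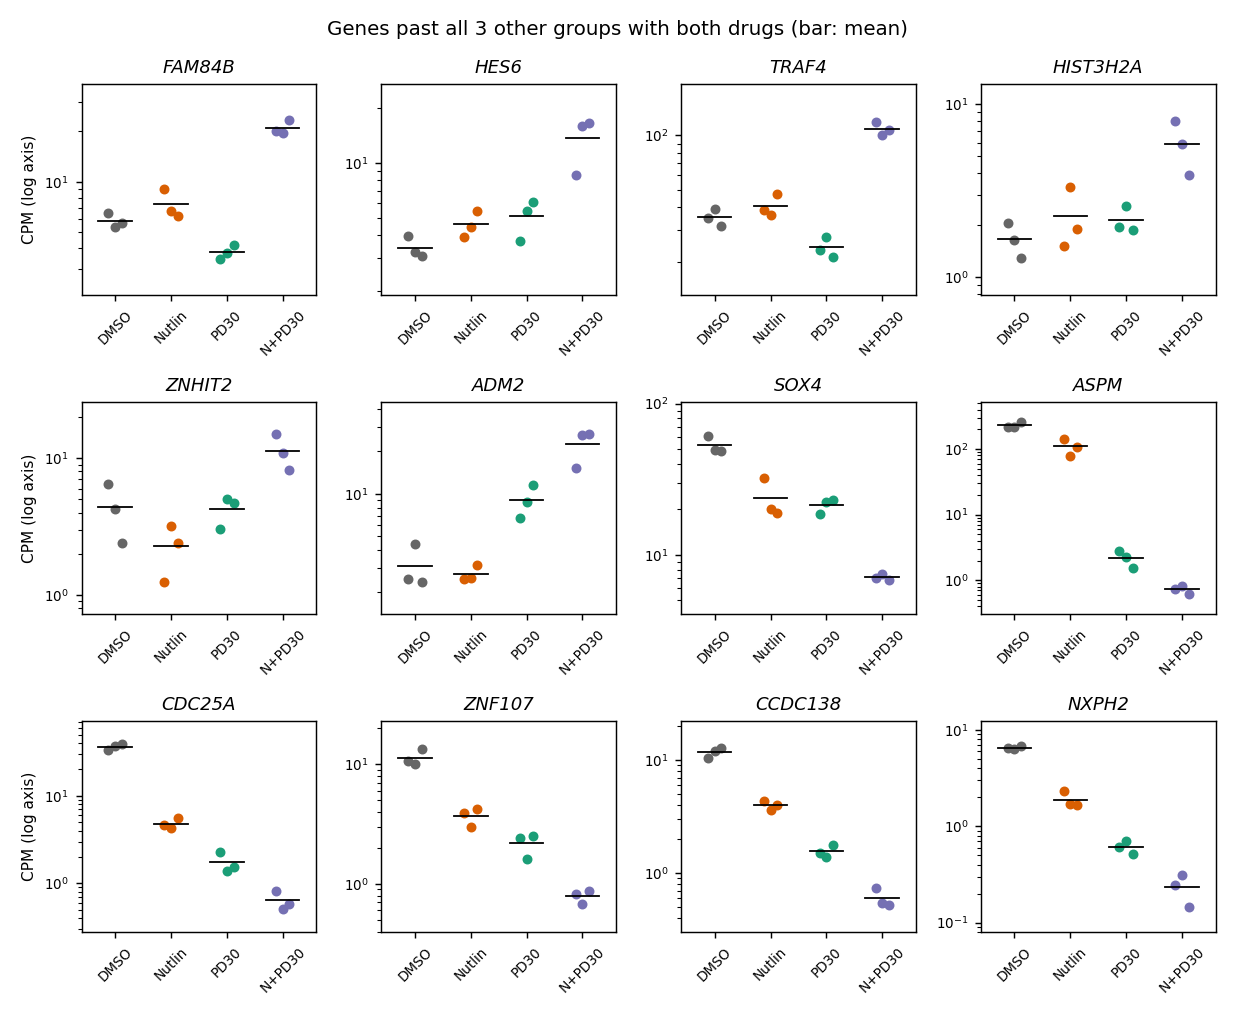
Levels in CPM (log axis) of the 6 genes above and the 6 genes below DMSO, Nutlin and PD30 at once that the naming rule selected, in each library of the 4 groups, with the group mean as a bar. In each panel the N+PD30 points stand at one end of the range.

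Overlaps in the annotation bear on some of these values. Of 163 named genes, 32 share exon positions with another gene of the count table, 28 of them with a gene on the opposite strand. MDM2 overlaps CPM, CDK4 overlaps TSPAN31, CCND1 overlaps LTO1, FTH1 overlaps BEST1, TUBB overlaps MDC1, and FAS overlaps ACTA2. Where strand was not kept, reads of such pairs cannot be told apart.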

How the data were processed

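RNA of SJSA-1 cells was sequenced as 50-base single reads. The authors aligned reads to hg19 (per the labels' processing notes, with TopHat and Bowtie2) and counted them per gene with HTSeq 0.6.0, and these counts were deposited without scaling. The notes also name DESeq2. Counting used the reverse strand, while the sources used here do not say whether the library kit kept strand. Replicates were not pooled. The table held 23368 gene rows, 28 of them with names turned into dates. The authors' own comparison columns were not used, and the PD24 and N+PD24 libraries were not analysed here.

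Pairs of groups were fitted with edgeR 4.0.16 (TMM, filterByExpr, quasi-likelihood F test, Benjamini-Hochberg adjustment over all tested genes) in R 4.3.3. A gene counted as called at an adjusted p below 0.05 with a change beyond 1 on the log2 scale in either direction. SE is the log2 fold change divided by the root of F. Levels were CPM after TMM over 12 libraries. The fit was tested on simulated counts. Alternatives used limma 3.58.1, DESeq2 1.42.0, other scalings, no filter and left-out libraries. Named genes were the drug targets and p53 genes of the study, the 8 largest rises and falls past 5 CPM, up to 4 per list and direction, the 5 of highest mean CPM in each direction, and 6 on each side past all other groups. The lists and members were chosen with earlier results of these data known. Replicate numbers were shared by the groups. Deviations from the group mean correlated by 0.34, 0.22 and 0.49 between same-numbered N+PD30 and DMSO libraries, so the numbers may pair the samples. The reported calls, SE and adjusted p come from the fit without a block for the replicate number, which leaves out such pairing. The fit with this block was an alternative. Positions and exon overlaps came from GENCODE on GRCh37, and promoters from RefSeq GRCh38.p14. Replicates differed by more than sampling noise. Values of some single genes of the lists are not reported here.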

Additional observations from a re-analysis of the deposited data

How the results depend on the processing

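N+PD30 against DMSO gave 3682 called genes with a replicate block (1737 higher and 1945 lower), and the block moved no count of calls over all genes by more than 1.5 times. Leaving out 1 library gave 3501 to 3889 calls (1618 to 1923 higher, 1878 to 1967 lower). The ranges were 3345 to 3691 for N+PD30 against Nutlin, 318 to 794 against PD30, 3188 to 3550 for Nutlin against DMSO and 2292 to 2400 for PD30 against DMSO. An adjusted p alone gave 4095 higher and 4469 lower genes, 8564 in all, and 7711, 2183, 8614 and 7307 calls in the other 4 comparisons in that order. A test against a fold of 2 gave 753, 1142 and 1895, and 1603, 108, 1729 and 1162. Both follow from how these thresholds are built. N+PD30 against PD30 gave 318 calls without PD30 replicate 1 and 356 without N+PD30 replicate 2, and the cause was not tested. Other scalings kept each total within 1.5 times; quantile scaling gave 1914 higher and 1662 lower. Of the 163 named genes, the call of 16 changed under some alternative that kept both thresholds, 14 losing it and 2 (CD68 and KRT18) gaining it, and none reversed. With the block RPS15 was lost (0.99). List counts were within 1.5 times in 637 of the alternatives computed and moved by more in 98. The counts of genes past all 3 other groups without single libraries were chosen after seeing the data. Depth limits values near 0, where N+PD30 replicate 1 holds the fewest counts.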
